A study of Homo sapiens with 6 samples.

Results

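The genes described here are 38 genes of homologous recombination and the Fanconi anaemia pathway, taken from a list of symbols and matched by identifier to 38 of the 62696 gene rows of the files. All 38 passed the filter on low counts. RNA was sequenced from C4-2, an established line of human prostate cancer that grows without androgen, kept in RPMI1640 with fetal bovine serum and antibiotics and given no treatment. The 3 vector libraries come from C4-2 cells labelled wild type for CDK12, and the 3 knockout libraries from C4-2 cells in which CDK12 was targeted with CRISPR-Cas9, labelled a knockout for each sample and a knockdown in the series title. The labels do not say how many edited clones there were or whether replicates were separate cultures, so p-values reflect no more than the differences among these libraries, which may be technical.

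Homologous recombination repairs a broken chromosome by copying the intact sister. The MRE11-RAD50-NBN complex binds the break, resection exposes single-stranded DNA that RPA covers, and BRCA1, PALB2 and BRCA2 help to start the exchange of strands. Fanconi proteins remove crosslinks between DNA strands, through a core complex that marks FANCD2 and FANCI with ubiquitin. CDK12 is a kinase of RNA polymerase II, known for helping to transcribe long genes and genes of this pathway, and prostate tumours can carry defects in either.

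Libraries held 16617644 to 21590817 reads in genes, and the 38 genes had 14 to 3977 reads each per library. Knockout library 2 stood apart: its log2 CPM (library-scaled read counts) correlated with those of the other libraries at r = 0.916 to 0.950 across genes, against 0.977 to 0.990 among the other 5, so results are given with and without it. All 10 luminal prostate markers stood at 1 CPM or more, and the 3 basal markers summed to 0.560 to 0.769 CPM in the vector and 0.283 to 1.70 in the knockout libraries, with TP63 at 0 reads. The 5 fibroblast markers summed to 21.6 to 23.0 and 23.7 to 30.2 CPM (DCN at 0, COL1A1 the most abundant). The 3 endothelial markers summed to 4.56 to 5.12 and 6.61 to 10.3 CPM (PECAM1 at 0, VWF the most abundant). Both sums were higher in every knockout library, but not every marker was. COL1A2 had 22, 20 and 10 reads in the vector libraries and 0 in each knockout library. COL3A1 had 17, 17 and 25 reads in the vector libraries and 54, 34 and 34 in the knockout libraries. LUM had 3, 1 and 0 reads in the vector libraries and 0 in each knockout library. CDH5 had 0, 7 and 1 reads in the vector libraries and 0, 0 and 1 in the knockout libraries. The 4 leukocyte markers summed to 0 to 2.41 CPM in the vector libraries and 0 in the knockout libraries. LYZ had 44 reads in vector library 1 and 0 and 2 in vector libraries 2 and 3. CD68 had 0 to 2 unstranded reads per library, but 142 to 452 in the sum of the stranded columns, described below. The part of all these markers in the results was not tested. The vector libraries 1 to 3 held CDK12 itself at 60.2, 48.0 and 57.1 CPM, the knockout libraries at 60.8, 56.9 and 56.5. The log2 fold change of CDK12 was 0.08 ± 0.13 (SE; adjusted p = 0.709 in edgeR). A count over the whole gene does not show whether the reading frame was lost.

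Promoter sequences are given for FANCA and RAD51C, the genes with the smallest adjusted p among those that fell and those that rose without knockout library 2. They come from RefSeq on GRCh38.p14, stop before the first annotated exon, and run 5′ to 3′ on the strand of the gene. Capitals mark an E2F motif, which reads on the other strand, and a CCAAT box.
FANCA promoter, chr16:89816658-89816897, minus strand: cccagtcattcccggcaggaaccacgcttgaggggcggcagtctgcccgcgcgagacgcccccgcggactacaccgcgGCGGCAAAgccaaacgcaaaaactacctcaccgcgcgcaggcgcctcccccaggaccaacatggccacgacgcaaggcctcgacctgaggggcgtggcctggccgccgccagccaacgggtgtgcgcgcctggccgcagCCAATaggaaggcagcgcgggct
RAD51C promoter, chr17:58692323-58692572, plus strand: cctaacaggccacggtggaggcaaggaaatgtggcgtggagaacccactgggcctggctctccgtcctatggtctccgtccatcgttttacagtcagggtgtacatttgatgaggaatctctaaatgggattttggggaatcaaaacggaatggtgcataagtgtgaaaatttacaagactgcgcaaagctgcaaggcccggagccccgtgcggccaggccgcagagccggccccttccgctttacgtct

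The FANCA stretch was 71.2% G and C and also held a GC box, and the RAD51C stretch was 55.2% G and C and held none of the motifs searched. Windows of 300 bases were at hand for 35 of the 38 genes. An E2F motif (TTTGGCGC, TTTCCCGC, TTTCGCGC or TTTGCCGC, either strand) was in 6 of the 35, those of EXO1, FANCA, FANCC, FANCD2, TOPBP1 and XRCC2, and in 3.99% of all 27305 genes with a window. CCAAT, on either strand, was in 17 of 35 and in 39.7% of all genes. The GC box GGGCGG was in 28 of 35 and in 48.3% of all genes. The cell cycle element TTTGAA or TTCGAA was in 5 of 35 and in 19.5% of all genes. No motif overlaps another in the FANCA stretch, and a match is a match of letters only.

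With all 6 libraries, 0 of the 38 genes had an adjusted p under 0.05 by the quasi-likelihood test of edgeR, where 0.596% of all 15783 tested genes did (0.177% lower and 0.418% higher). At an unadjusted p under 0.05 there were 6, or 15.8% of the 38, against 21.7% of all genes. NBN, FANCA, FANCF and FANCM were the lower ones (8.69% of all genes), RAD51C and RPA2 the higher ones (13% of all genes). DESeq2 called 1 gene, NBN (6.21% of all genes), and limma-voom 0 (0.665% of all genes). The fitted log2 fold changes ran from -0.81 to 0.42 with a median of -0.19, beside 0.00 over all tested genes, and 25 lay below 0 (65.8%, against 50% of all genes). Without knockout library 2, 24 lay below 0 (63.2%, against 51.7%).

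Without knockout library 2, 3 of the 38 genes fell, NBN, FANCA and FANCF, and 2 rose, RAD51C and RPA2. These are 13.2% of the 38, where 19.1% of 16339 tested genes passed (8.88% lower and 10.2% higher), so the share was no higher than the background. DESeq2 called 3 lower and 1 higher (16.1% of all genes) and limma-voom 3 and 2 (18.9%). At an unadjusted p under 0.05 there were 13 (34.2%, against 31.7% of all genes, 15.7% lower and 16% higher). All 38 changes were smaller than 0.5 on the log2 scale, and the median was -0.07 beside -0.01 over all tested genes. Leaving out vector library 2 as well gave 9 lower and 3 higher, with 29.3% of all genes called. The genes added were BRCA1, FANCI, FANCM, MDC1, TP53BP1 and POLQ on the lower side and BRCA2 on the higher. Without, in turn, vector library 1, vector library 3, knockout library 1 or knockout library 3 the counts were 3, 3, 2 and 1 lower and 1, 0, 0 and 0 higher, with 13.5%, 13.4%, 7.82% and 6.58% of all genes called. In this bulk RNA, fewer cells expressing a gene and less RNA per cell cannot be told apart.

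**Figure D1:**
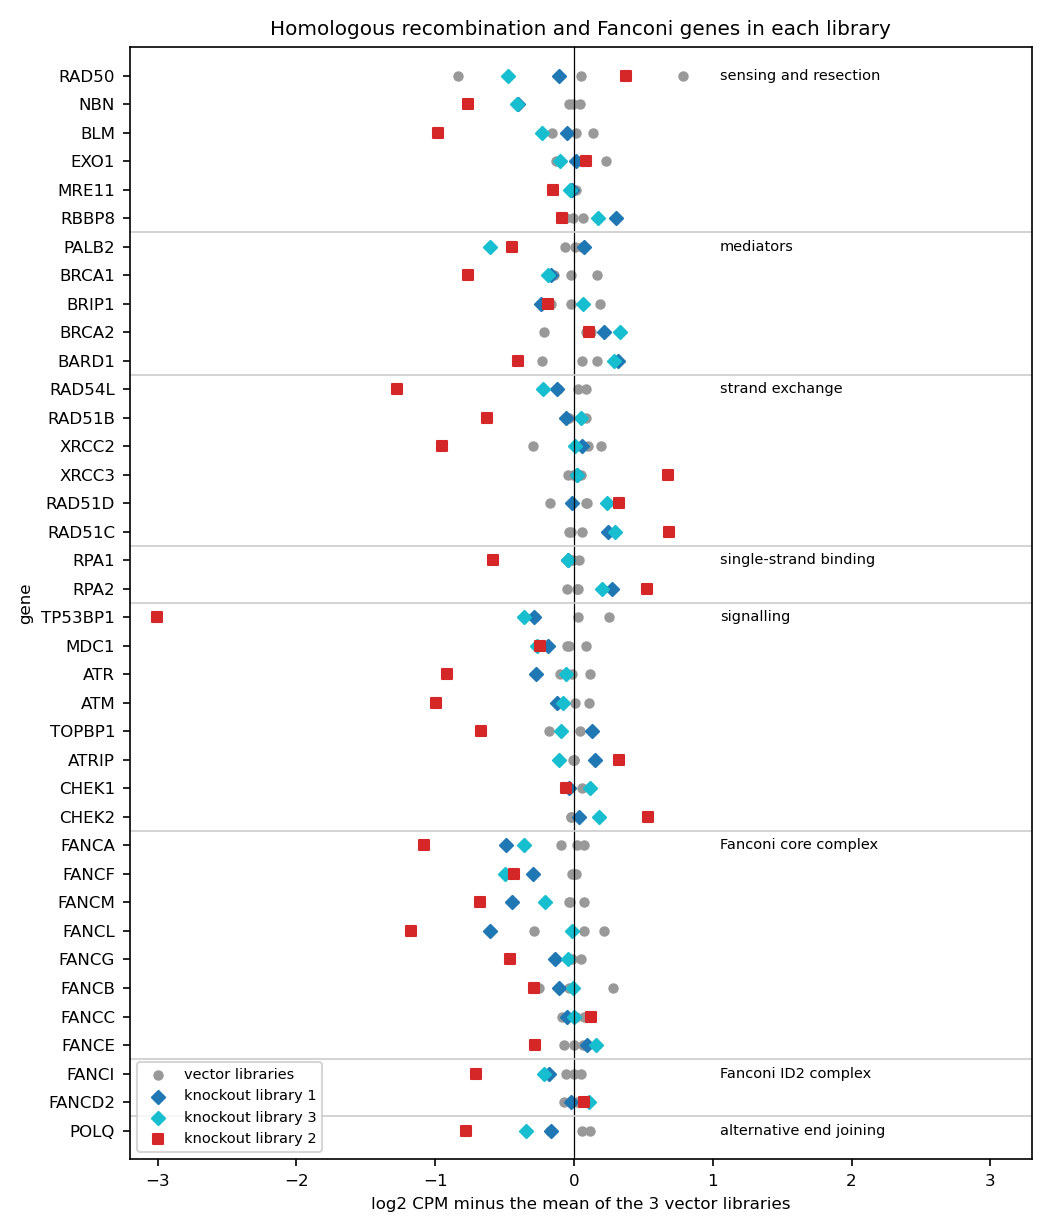
Log2 CPM of each of the 38 genes minus the mean of the 3 vector libraries (horizontal axis), 1 row per gene, grouped by role. Each point is 1 library. Knockout library 2 (red squares) lay lowest of all 6 libraries in 23 genes and highest in 7, and its point for TP53BP1 lies farthest from 0.

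Knockout library 2 was the lowest of the 6 libraries for 23 of the 38 genes and the highest for 7, and among all tested genes the shares were 39.6% and 37.4%. Its median shift over these genes was -0.42 on the log2 scale, against -0.05 and -0.04 in knockout libraries 1 and 3. Over all tested genes its median shift was -0.03. By unstranded reads, RAD54L, FANCA, FANCL and TP53BP1 were more than 1 below the vector mean there, on the log2 scale. Of the 38 genes, these had the largest ratios of stranded sum to unstranded count, at 2.60, 2.52, 2.28 and 2.74 (described below). Ambiguous reads were 14.4% of all reads in knockout library 2 and 11.1% to 12.2% in the others. Their part in these values was not tested. The 38 genes summed to 1436 to 1460 CPM in the vector libraries, 1409 and 1414 in knockout libraries 1 and 3 and 1237 in knockout library 2. Without the scaling between libraries, in which knockout library 2 had a factor of 0.737, the sums were 1487 to 1599, 1472, 1491 and 911.

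Among the genes of break sensing and resection, NBN was lower in every knockout library. NBN (ENSG00000104320.15, chromosome 8, 89933336 to 90003228, GRCh38) encodes the subunit that recruits ATM to the break. It stood at 42.9, 41.5 and 40.7 CPM in the vector libraries and 31.5, 24.5 and 31.4 in the knockout libraries. The groups did not overlap, and the lowest value was that of knockout library 2. Its log2 fold change was -0.52 ± 0.14 (SE; adjusted p = 0.160 in edgeR) with all libraries and -0.41 ± 0.09 (adjusted p = 0.00356 in edgeR) without knockout library 2, where the call ended only when knockout library 3 was left out too (adjusted p 4.32e-06 to 0.0634 over the edgeR, DESeq2 and limma-voom alternatives).

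Its partner MRE11, the nuclease of the complex, stood at 37.6, 37.0 and 37.0 CPM in the vector libraries and 36.9, 33.5 and 36.6 in the knockout libraries. The knockout values of MRE11 lay below the vector values, by less than 1 CPM except in knockout library 2, and the log2 fold change was -0.06 ± 0.11. RAD50, the ATPase that bridges the complex, had only 14 to 48 reads per library. In GENCODE 29, 79.7% of its exonic length is also exon of ENSG00000283782, a gene on the same strand, and reads lying in both are counted for neither. ENSG00000283782 had 0 reads in all 6 libraries. Where the authors' annotation holds the same overlap, the RAD50 values of 0.784 to 2.64 CPM rest on the remaining exons alone.

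RBBP8, which encodes CtIP and starts resection, stood at 20.6, 19.6 and 18.9 CPM in the vector libraries and 24.4, 18.6 and 22.2 in the knockout libraries. Knockout libraries 1 and 3 lay above the vector libraries and knockout library 2 below them. The nuclease gene EXO1 had a log2 fold change of -0.01 ± 0.15 and the helicase gene BLM one of -0.37 ± 0.27 (adjusted p = 0.973 and 0.384 in edgeR).

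BRCA1 and BRCA2 had fitted changes of opposite sign, and neither passed the test. BRCA1 (ENSG00000012048.24, chromosome 17, 43044295 to 43170245), a ubiquitin ligase that promotes resection, stood at 62.6, 50.3 and 54.9 CPM in the vector libraries and 49.8, 32.8 and 49.0 in the knockout libraries. All knockout values lay below all vector values, by little in knockout libraries 1 and 3. The log2 fold change was -0.35 ± 0.19 (adjusted p = 0.285 in edgeR), and -0.19 ± 0.09 without knockout library 2 (adjusted p = 0.184 in edgeR). In the latter fit, leaving out vector library 2 too or adding a replicate block (last paragraph) brought BRCA1 past the threshold. With the length and GC correction its value was -0.07 (adjusted p 0.00152 to 0.617 over the edgeR, DESeq2 and limma-voom alternatives).

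BRCA2 (ENSG00000139618.18, chromosome 13, 32315474 to 32400266), which acts after resection, had fitted changes above 0. Its values were 36.2, 45.9 and 44.6 CPM in the vector libraries and 48.9, 45.3 and 53.0 in the knockout libraries. Groups overlapped only through knockout library 2, and vector library 1 was the lowest. The log2 fold change was 0.22 ± 0.14 (adjusted p = 0.342 in edgeR) with all libraries and 0.27 ± 0.10 (adjusted p = 0.0698 in edgeR) without knockout library 2, where leaving out vector library 2 too, keeping all low counts or correcting for length and GC brought it past the threshold (adjusted p 0.000102 to 0.409 over the edgeR, DESeq2 and limma-voom alternatives).

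BARD1, the obligate partner of BRCA1, stood at 35.1, 26.7 and 32.6 CPM in the vector libraries and 38.9, 23.6 and 38.2 in the knockout libraries. As for RBBP8, knockout libraries 1 and 3 were the highest and knockout library 2 the lowest. Its log2 fold change was 0.29 ± 0.11 without knockout library 2 (adjusted p = 0.0753 in edgeR, past the threshold when vector library 1 was left out too, when all low counts were kept and with the length and GC correction). PALB2, the bridge from BRCA1 to BRCA2, had -0.30 ± 0.21 and the helicase gene BRIP1 -0.12 ± 0.18 with all libraries.

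RAD51C had the lower adjusted p of the genes that rose. It encodes a protein of strand exchange (ENSG00000108384.16, chromosome 17, 58692573 to 58735611), and its promoter is printed above. The vector libraries held 60.7, 64.8 and 61.1 CPM and the knockout libraries 73.8, 100.3 and 76.4. Every knockout library lay above every vector library, with knockout library 2 the highest. The log2 fold change was 0.42 ± 0.15 (adjusted p = 0.209 in edgeR), and 0.27 ± 0.08 without knockout library 2 (adjusted p = 0.0179 in edgeR, up to 0.207 over the alternatives). That call ended when any one of vector library 1, vector library 3, knockout library 1 or knockout library 3 was left out too.

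The other genes of strand exchange gave no call. The log2 fold changes without knockout library 2 were 0.11 ± 0.12 for RAD51D, 0.01 ± 0.11 for XRCC2, 0.02 ± 0.07 for XRCC3 and -0.01 ± 0.18 for RAD51B, each with an edgeR adjusted p of 0.610 or more. In knockout library 2, XRCC2 and XRCC3 stood on opposite sides of the other libraries. XRCC2 read 29.9 CPM there against 47.1 to 66.3 elsewhere, and XRCC3 114 CPM against 69.3 to 73.9 elsewhere. Of the exonic length of XRCC3, 76.7% is shared with KLC1 on the opposite strand, and its value depended on how shared reads are counted (below). RAD54L, a motor protein that moves on DNA, held 25.7, 29.5 and 28.3 CPM in the vector libraries and 25.5, 11.5 and 23.8 in the knockout libraries. By these unstranded reads, all its knockout values lay below its vector values, that of knockout library 2 by far the most. Of the exonic length of RAD54L, 25.1% is shared with LRRC41 on the opposite strand. In the sum of the stranded columns (below), knockout library 2 held the most RAD54L reads, 1308 against 1043 to 1263 elsewhere, before scaling.

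Of the subunits of RPA, the single-strand binding protein, RPA2 rose without knockout library 2 and RPA1 did not pass the test. RPA2 (ENSG00000117748.10, chromosome 1, 27891524 to 27914746) stood at 58.0, 58.4 and 55.4 CPM in the vector libraries and 69.2, 82.6 and 65.9 in the knockout libraries, with no overlap. Its log2 fold change was 0.34 ± 0.12 (adjusted p = 0.213 in edgeR) and 0.23 ± 0.08 without knockout library 2 (adjusted p = 0.0420 in edgeR). That call ended when any one of vector library 1, vector library 3, knockout library 1 or knockout library 3 was left out too. It also ended in DESeq2, with no filter on low counts and with the length and GC correction, which gave 0.15 (adjusted p = 0.149 in edgeR, and up to 0.345 over the edgeR, DESeq2 and limma-voom alternatives). RPA1, the large subunit, stood at 198, 192 and 189.6 CPM in the vector libraries and 188, 129 and 187 in the knockout libraries. Only knockout library 2 lay far below the rest, and the log2 fold change without it was -0.05 ± 0.06.

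Both apical kinases were lowest in knockout library 2. ATM (ENSG00000149311.20, chromosome 11, 108222484 to 108369102), which signals from double-strand breaks, stood at 27.8, 25.5 and 29.9 CPM in the vector libraries and 25.4, 13.8 and 26.2 in the knockout libraries. Knockout library 3 fell within the vector range, and the log2 fold change was -0.34 ± 0.25 with all libraries and -0.11 ± 0.11 without knockout library 2 (adjusted p = 0.387 and 0.515 in edgeR). ATR (ENSG00000175054.16, chromosome 3, 142449235 to 142578826), which answers RPA-coated DNA, held 24.7, 22.6 and 21.3 CPM in the vector libraries and 18.8, 12.1 and 22.0 in the knockout libraries. Knockout library 1 was also below the vector range, and the log2 fold changes were -0.37 ± 0.23 and -0.17 ± 0.12 (adjusted p = 0.325 and 0.335 in edgeR).

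Downstream of them, the checkpoint kinase gene CHEK1 had a log2 fold change of 0.01 ± 0.11 and CHEK2 one of 0.27 ± 0.15 (adjusted p = 0.961 and 0.299 in edgeR). CHEK2 reached 75.6 CPM in knockout library 2 against 51.4 to 59.2 in the other 5. The ATR partner gene ATRIP stood at 21.8 to 21.9 CPM in the vector libraries and 20.3 to 27.4 in the knockout libraries, and 27.9% of its exonic length is shared with TREX1 on the same strand. TOPBP1, an activator of ATR, read 31.6 CPM in knockout library 2 and 44.6 to 55.2 elsewhere. MDC1, the scaffold that reads phosphorylated H2AX, stood at 42.6, 38.8 and 39.2 CPM in the vector libraries and 35.3, 33.9 and 33.5 in the knockout libraries, with no overlap and with knockout library 2 in the middle of its group. Its log2 fold change was -0.23 ± 0.09 without knockout library 2 (adjusted p = 0.0918 in edgeR).

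In the Fanconi core complex, 7 of 8 genes had a fitted change below 0 without knockout library 2 (51.7% of all genes did), of which FANCA and FANCF passed the test and 0 rose, where 8.88% of all genes fell and 10.2% rose. FANCA (ENSG00000187741.16, chromosome 16, 89737549 to 89816657) stood at 64.5, 72.5 and 70.0 CPM in the vector libraries and 49.0, 32.5 and 53.7 in the knockout libraries. There was no overlap, and knockout library 2 was the lowest. The log2 fold change was -0.61 ± 0.19 (adjusted p = 0.194 in edgeR) with all libraries and -0.43 ± 0.08 (adjusted p = 0.00117 in edgeR) without knockout library 2, where leaving out knockout library 1 too ended the call (adjusted p 5.96e-08 to 0.0510 over the edgeR, DESeq2 and limma-voom alternatives).

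FANCF, an adaptor of the complex and a gene without introns that spans 2.95 kb (ENSG00000183161.6, chromosome 11, 22622890 to 22625841), had the tightest vector values of those that fell. They were 28.7, 29.2 and 28.95 CPM, and the knockout libraries held 23.5, 21.4 and 20.4. Here knockout library 2 lay between the other knockout libraries. Its log2 fold change was -0.41 ± 0.12 (adjusted p = 0.180 in edgeR) with all libraries and -0.40 ± 0.11 (adjusted p = 0.0115 in edgeR) without knockout library 2. That call ended without knockout library 3 (adjusted p 0.000236 to 0.237 over the edgeR, DESeq2 and limma-voom alternatives).

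FANCM, the translocase that anchors the complex to DNA, held 14.8, 13.8 and 13.8 CPM in the vector libraries and 10.3, 8.81 and 12.2 in the knockout libraries. These did not overlap either, with a log2 fold change of -0.44 ± 0.17 (adjusted p = 0.217 in edgeR), and -0.34 ± 0.14 without knockout library 2 (adjusted p = 0.0969 in edgeR). FANCC, FANCE and FANCB had log2 fold changes of 0.02 ± 0.12, 0.00 ± 0.15 and -0.15 ± 0.22 with all libraries. FANCG, the most abundant core gene per kilobase, had -0.20 ± 0.14 (adjusted p = 0.368 in edgeR). FANCL, the ubiquitin ligase of the complex, held only 3.52 to 9.39 CPM.

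The substrates of that ligase gave no call. FANCD2 stood at 34.5, 37.7 and 37.0 CPM in the vector libraries and 35.8, 38.2 and 39.1 in the knockout libraries, so the groups overlapped. FANCI held 76.9, 79.9 and 83.0 CPM in the vector libraries and 70.4, 48.9 and 68.9 in the knockout libraries. Its log2 fold change without knockout library 2 was -0.20 ± 0.07 (adjusted p = 0.0594 in edgeR). POLQ, the polymerase of the alternative end joining pathway that cells lacking recombination rely on, had log2 fold changes of -0.41 ± 0.19 and -0.26 ± 0.11 (adjusted p = 0.242 and 0.117 in edgeR).

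**Figure D2:**
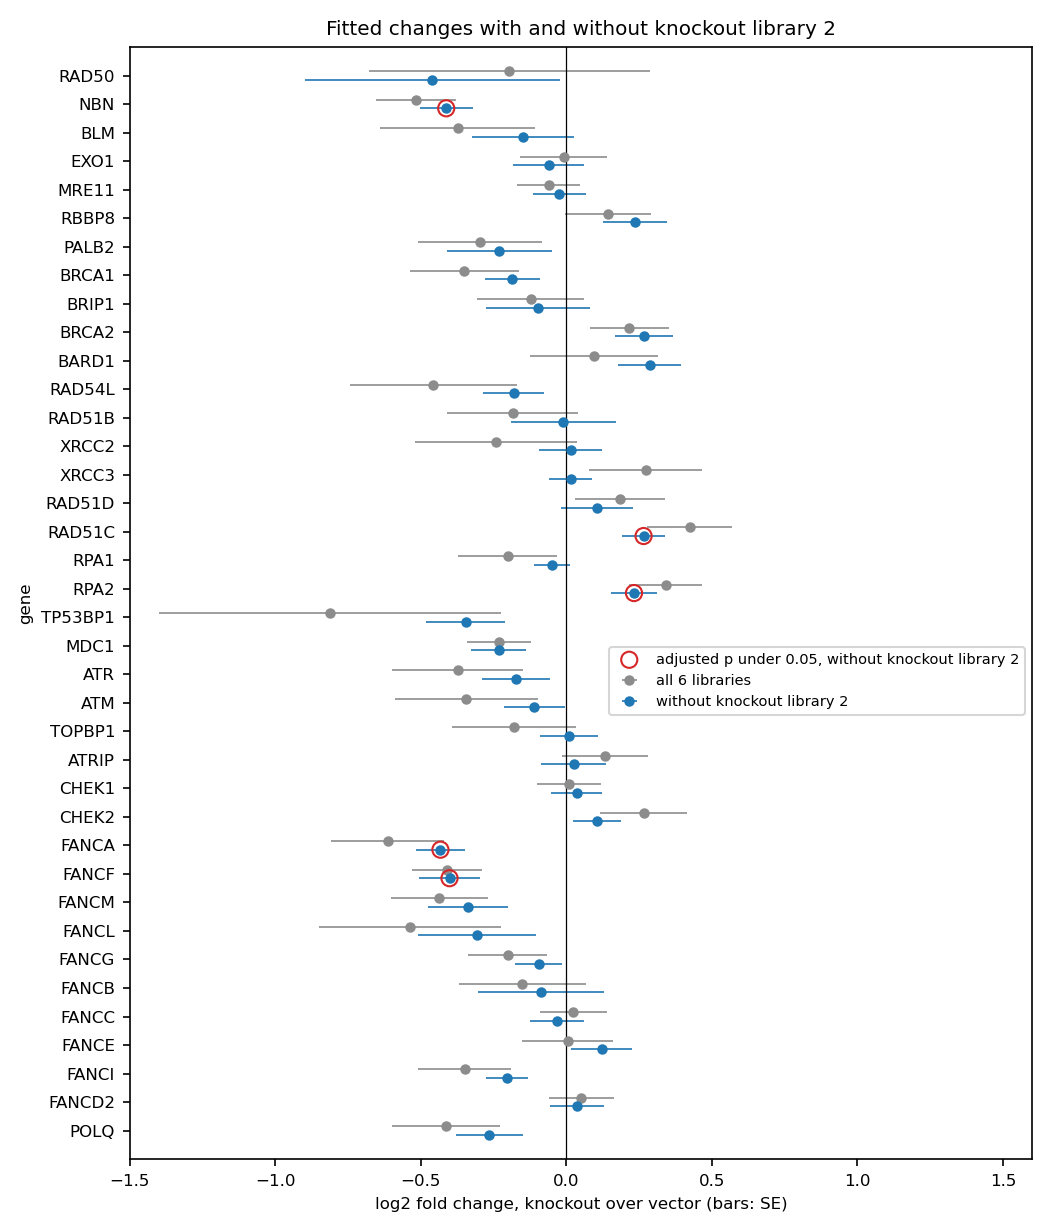
Fitted log2 fold change of each gene, knockout over vector, with all 6 libraries (grey) and without knockout library 2 (blue); bars are SE. Circles mark the 5 genes with an edgeR adjusted p under 0.05 without knockout library 2, and 30 of the 38 changes were smaller in that fit.

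In 12 of the 38 genes all 3 knockout libraries lay below all 3 vector libraries (31.6%, against 19% of all tested genes), and in 3 they lay above (7.89%, against 20.4%), where 39.4% of all genes had groups that did not overlap. The counts without knockout library 2 were 12 and 7, that is 31.6% and 18.4%, against 22.8% and 24.5% of all genes (47.2% in either direction). The 12 genes were the same in both cases: BRCA1, RAD54L, MRE11, NBN, FANCA, FANCF, FANCG, FANCI, FANCM, MDC1, TP53BP1 and RPA1. The 4 genes added on the higher side were BRCA2, BARD1, RBBP8 and FANCE. Signs of the fitted change were the same in both fits for 35 of 38 genes, the others being XRCC2, FANCC and TOPBP1. The counts of groups that do not overlap used unstranded reads only. By the sum of the stranded columns, described next, RAD54L and FANCI had log2 fold changes of 0.18 and 0.04 with all libraries. The rest of the 12 stayed below 0 by that sum.

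How reads shared between strands are counted changed several of these values. The files count each read once without regard to strand, and drop it where it lies in exons of 2 genes. They also hold 2 stranded columns, whose sum keeps a read that lies over genes on opposite strands, once for each gene. For 24 of the 38 genes that sum was under 1.1 times the unstranded count, and for 14 it was 1.1 times or more. The largest ratios were 2.74 for TP53BP1, 2.60 for RAD54L, 2.52 for FANCA, 2.28 for FANCL and 2.02 for FANCI. Reads in the sum can come from either gene.

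TP53BP1, which shields breaks from resection, overlaps the tubulin complex gene TUBGCP4 over 28.7% of its exonic length. Its unstranded reads gave 22.9, 18.5 and 26.7 CPM in the vector libraries and 18.4, 2.71 and 17.5 in the knockout libraries, the widest gap of any of these genes in knockout library 2. In reads, knockout library 2 held 43 against 330 to 486 in the other libraries, and by the stranded sum 578 against 808 to 1094. The log2 fold change was -0.81 ± 0.59 by unstranded reads and -0.25 ± 0.18 by the stranded sum (adjusted p = 0.392 and 0.382 in edgeR).

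RAD54L, opposite LRRC41, went from a log2 fold change of -0.46 to 0.18 with the sum, FANCI, opposite POLG, from -0.35 to 0.04, and FANCL, opposite VRK2, from -0.54 to 0.07. For BLM it went from -0.37 to 0.03, and for XRCC3, opposite KLC1, from 0.27 to 0.07. FANCA, part of whose exons lies opposite ZNF276, kept its sign at -0.31, and without knockout library 2 it stayed past the threshold by the sum (log2 -0.27, adjusted p = 0.0140 in edgeR). NBN and FANCF did so too (log2 -0.39 and -0.50), where 20.6% of all genes passed by the sum. Over the 14 genes with a ratio of 1.1 or more the median log2 fold change with all libraries was -0.36 by unstranded reads and 0.01 by the sum, and over the other 24 it was -0.14 and -0.16. Whether the opposite gene or the listed gene accounts for the difference was not tested.

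**Figure D3:**
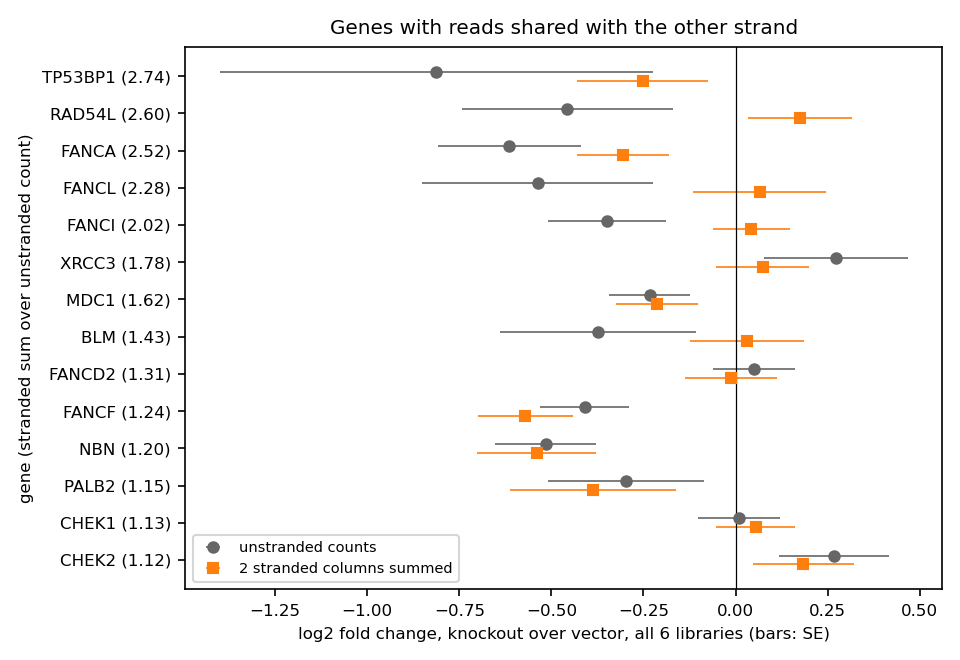
Log2 fold change with all 6 libraries of the 14 genes whose stranded sum was at least 1.1 times the unstranded count (ratio in parentheses), by unstranded counts (grey circles) and by the sum of the stranded columns (orange squares); bars are SE. RAD54L, FANCL, FANCI and BLM lie below 0 by the first and above 0 by the second.

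By gene length, the medians of the 38 genes ran in the same direction as those of all genes. Their spans, start to end with introns, ran from 2.95 kb (FANCF) to 910 kb (RAD51B) with a median of 70.1 kb, longer than the 24.7 kb of all tested genes. With all libraries the median log2 fold change was 0.07 in the 8 genes under 30 kb, -0.20 in the 21 of 30 to 100 kb and -0.34 in the 9 over 100 kb. Over all tested genes the same classes had medians of 0.14, -0.11 and -0.20. Those values became 0.02, -0.06 and -0.11 for the 38 genes without knockout library 2, and 0.05, -0.06 and -0.12 for all.

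Across the 38 genes Spearman's rho between span and log2 fold change was -0.20, or -0.14 without knockout library 2, and across all annotated tested genes -0.27, or -0.15 without it. These points share their libraries and are not independent replicates. Among the longest, RAD51B at 910 kb, FANCC at 328 kb and RBBP8 at 228 kb had log2 fold changes of -0.01, -0.03 and 0.24 without knockout library 2, none past the test. Of the 9 genes over 100 kb 0 passed in either fit. Among all tested genes of that span 15.2% were called lower and 5.62% higher without knockout library 2, and 0.447% and 0.325% with all libraries, so 9 genes are too few to set apart from that background. Transcripts of the 38 genes had a median GC content of 42.6%, below the 48.9% of all tested genes.

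**Figure D4:**
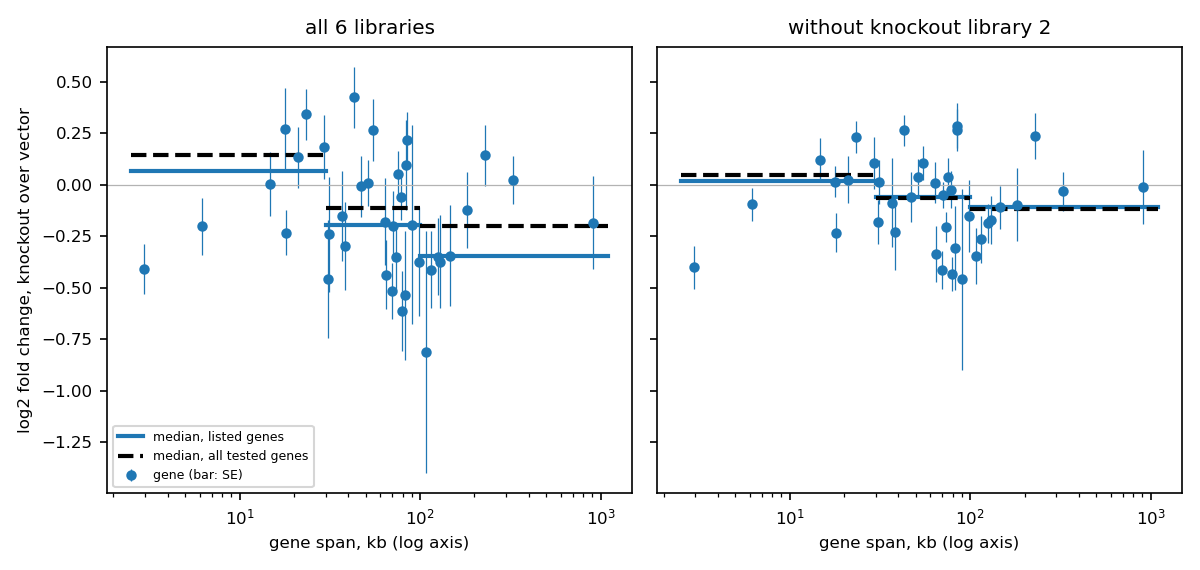
Gene span (log axis) against log2 fold change for the 38 genes, with SE bars, with all libraries (left) and without knockout library 2 (right). Solid lines are medians of these genes in 3 span classes and dashed lines medians of all tested genes, which run close together without knockout library 2 (-0.11 and -0.12 over 100 kb).

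Levels per kilobase of exon, used here to compare genes of unlike length, spanned a wide range in the vector libraries. RPA1 was highest at 35.2 ± 0.793 CPM per kb (SD, n = 3), then RPA2 at 28.4 ± 0.798, FANCG at 16.2 ± 0.478 and XRCC2 at 12.1 ± 2.08. At the other end stood BRIP1 at 0.975 ± 0.124, RAD51B at 0.816 ± 0.0446 and RAD50 at 0.169 ± 0.0954, whose exons are mostly shared as described above. BRCA1 was at 6.09 ± 0.674, BRCA2 at 3.44 ± 0.426, ATR at 1.83 ± 0.138 and ATM at 1.16 ± 0.0910. Of the 37 neighbouring pairs in this order, 25 had overlapping values and could not be ranked. Genes that share exons with others are underestimated on this scale. The length takes in every annotated exon of a gene, whether or not these cells use it, so the order depends partly on annotation.

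Another 58 genes of the same pathways, listed by role, were counted in the same way. With all libraries 0 passed in edgeR (0.596% of all genes did), 1 in DESeq2 (6.21%) and 0 in limma-voom (0.665%). At an unadjusted p under 0.05 in edgeR there were 11 of the 58, where 21.7% of all genes passed. Without knockout library 2, 4 of the 58 fell (8.88% of all tested genes did) and 9 rose (10.2% of all), with a median of 0.03. Those that fell were FAAP100, a core complex partner, the nuclease scaffold gene SLX4, the crosslink nuclease gene FAN1 and BRCC3, the deubiquitinase of the BRCA1-A complex. Their log2 fold changes were -0.35, -0.40, -0.40 and -0.41 (adjusted p = 0.00764, 0.0124, 0.0348 and 0.0245 in edgeR). Without knockout library 3 as well, 0 fell and 3 rose (6.58% of all genes called), without knockout library 1 as well 2 and 2 (7.82%), and without vector library 2 as well 13 and 12 (29.3%). Without vector library 1 as well 2 fell and 6 rose (13.5% of all genes called), and without vector library 3 as well 2 and 8 (13.4%). By the stranded sum, 1.73 times its unstranded count, the FAN1 value was -0.21 and the call ended (adjusted p = 0.162 in edgeR). Knockout library 2 was the lowest of all libraries for SLX4, FAN1 and BRCC3. For FAAP100 it was the highest, at 118.0 CPM against 94.1, 117.5 and 96.7 in the vector libraries. With all libraries the log2 fold change of FAAP100 was -0.14 ± 0.19 (adjusted p = 0.636 in edgeR).

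The 6 rises with the smallest adjusted p were those of SWI5, MAD2L2, SEM1, RPA3, BABAM1 and BABAM2. SWI5, a helper of strand exchange, held 39.0, 46.1 and 39.5 CPM in the vector libraries and 61.1, 140.1 and 67.2 in the knockout libraries (log2 0.62 ± 0.09 without knockout library 2, adjusted p = 9.09e-05 in edgeR). By the stranded sum, 1.52 times its unstranded count, the SWI5 value was 0.32. RPA3, the small RPA subunit, held 38.1, 37.0 and 36.6 CPM in the vector libraries and 49.9, 122 and 46.3 in the knockout libraries. BABAM1 and BABAM2, of the BRCA1-A complex, rose by 0.42 and 0.41, MAD2L2 of the shieldin complex by 0.37 and SEM1, a small partner of BRCA2, by 0.32 on the log2 scale without knockout library 2. In all 6 of these genes knockout library 2 was the highest of the 6 libraries.

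Many of the listed genes are transcribed mainly in S phase, so 33 E2F-driven and replication genes were measured beside them. Their summed level was 3703 to 3858 CPM in the vector libraries and 3979, 4662 and 3947 in knockout libraries 1 to 3, and their median shift was -0.01, -0.17 and -0.03. TK1 alone held 385, 421 and 357 CPM in the vector libraries and 510, 974 and 513 in the knockout libraries. By the stranded sum, the log2 fold changes of TYMS, CCNE2 and MCM2 with all libraries went from -0.61, -0.88 and -0.52 to -0.24, 0.00 and 0.07. By unstranded reads, 19 of the 33 genes lay below 0 with all libraries. With all libraries 0 passed in edgeR (0.596% of all genes did) or limma-voom (0.665%) and 1 in DESeq2 (6.21%). Of the 33, 4 had an unadjusted p under 0.05 in edgeR, where 21.7% of all genes did. Without knockout library 2, 0 fell (8.88% of all genes did) and 3 rose in edgeR (10.2% of all), namely GINS3, TK1 and RFC4, with a median of -0.03. Their part in the values of the 38 genes was not tested.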

How the data were processed

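Per the labels' protocols, total RNA was extracted with an RNeasy kit and libraries were made with a SMARTer kit. Reads were processed with STAR and FastQC on GRCh38, per the submitters' processing notes, with tool versions and annotation not given in the sources used here. The authors deposited raw counts of reads for each gene, with 62696 gene rows after 4 summary rows, 1 unstranded column and 2 stranded columns. The unstranded column was used. The summary rows (ambiguous reads 11.1% to 14.4% of all reads) stayed out of library sizes and tests. Names were matched by unversioned identifier (62672 of 62696), and spans, exons and overlaps were read from GENCODE 29 (GRCh38). The authors' own gene models may differ.

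Groups and replicate numbers come from sample titles. The main test was that of edgeR 4.0.16 in R 4.3.3 (genes kept by filterByExpr, TMM factors, robust quasi-likelihood test, Benjamini-Hochberg over all genes, threshold 0.05), with DESeq2 1.42.0 and limma 3.58.1 (voom) as alternatives. CPM use TMM factors of all 6 libraries, and shifts use log2 CPM with a prior count of 2. SE is the log2 fold change divided by the square root of F. The edgeR steps were tested on simulated data. The genes and lists were chosen with earlier results of these data known. Values per library are given for genes with an adjusted p under 0.05 in either fit or an unadjusted p under 0.05 with all libraries, for BRCA1, BRCA2, ATM and ATR, for the highest and lowest level per kilobase, and for others where a role is described. Those of the last kind, among them TP53BP1, MDC1, BARD1, RBBP8, FANCD2, FANCI and MRE11, were chosen after values were seen. Of the related genes, up to 6 in each direction with the smallest adjusted p are named. Of the listed genes, promoters of NBN, FANCI and RPA2 were not used here.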

Additional observations from a re-analysis of the deposited data

How the results depend on the processing

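With all 6 libraries, DESeq2 called 1 of the 38 genes lower and 1 related gene higher (6.21% of all genes called). Leaving out 1 library gave 0 to 3 of the 38 lower, 0 to 2 higher, 0 to 4 related lower and 0 to 9 related higher. The upper ends came without knockout library 2, where 19.1% of all genes were called. Without knockout library 2, DESeq2 called 1 of the 38 higher (16.1% of all genes called in either direction). Leaving out 1 vector library as well gave 3 to 9 of the 38 lower, 0 to 3 higher, 2 to 13 related lower and 6 to 12 related higher. The share of all genes called ran from 13.4% to 29.3% over these settings. Leaving out any 1 more library there gave a median log2 fold change of the 38 of -0.103 to -0.021. That median, -0.074 in edgeR, was -0.052 with upper quartile scaling, -0.063 with no filter, -0.053 with a filter at 50 counts, -0.069 in DESeq2, -0.064 in limma-voom, -0.035 with the stranded columns summed and -0.032 with the length and GC correction. That correction removes trends over all genes with the length and GC content of the longest transcript, and does not use gene span. Under it, Spearman's rho with span was 0.038 with all libraries and 0.088 without knockout library 2. ATM reversed to 0.061 under it without knockout library 2. RAD50, with at most 48 reads, reversed to 0.16 under it with all libraries, ran from -0.53 to 0.31 when 1 library was left out, and from -0.79 to 0.046 when 1 more than knockout library 2 was; the cause was not tested.

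Replicate numbers do not pair the libraries by any label. The correlation of same-numbered deviations from the group means was 0.135, 0.194 and 0.084, and each library correlated best with its own number. Deviations within a group sum to 0, so these matches are not independent of each other. Vector library 3 gave 0.084 with knockout library 3 and 0.076 with knockout library 1, so no pairing is concluded. With a replicate block and without knockout library 2, 10 of the 38 genes were lower, BRCA1 among them, and 3 higher, BRCA2 among them. Of the related genes 15 were lower and 12 higher, the median of the 38 was -0.101, and 33.9% of all genes passed. The depth limits RAD50, FANCB, FANCL, RAD51B, BRIP1 and BLM most, all under 10 CPM.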
